A study of Mus musculus with 4 samples.

Results

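The replication-dependent histone genes were followed through 52 ATAC-seq peaks, of 128055 in the whole table, in mesenchymal stem cells (MSCs) grown from digested mouse bone, which the labels call bone-marrow MSCs. A peak belonged to them when it lay within 1 kb of an annotated start site of a protein-coding gene whose name begins with Hist1h, Hist2h, Hist3h or Hist4h (GENCODE M21, build mm10). Of 67 such genes, 61 had at least 1 peak within that distance and 58 had a start site inside a peak. By type of product, the 67 genes were 6 for linker histone H1, 18 for H2A, 18 for H2B, 12 for H3 and 13 for H4. The rule used gene names and positions and no measured value.

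Histones are the proteins that DNA winds around. H2A, H2B, H3 and H4 build the core of the nucleosome, and H1 binds the DNA that links nucleosomes. The genes followed here supply the bulk of histone protein when DNA is copied in S phase. They lie in clusters, lack introns, and make transcripts that end in a stem-loop in place of a poly(A) tail, and many H2A and H2B genes stand head to head around a shared promoter. Replication-independent variants such as H3.3 are encoded by single genes elsewhere that are also transcribed outside S phase.

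ATAC-seq measures open chromatin through the insertion of adapters by the Tn5 transposase. The study asked how long exposure to atmospheric oxygen affects the chromatin of MSCs, and compared hypoxia at 2% O2 (2 libraries) with normoxia at 21% O2 (2 libraries). Both groups came from wild-type male C57BL/6N mice aged 3 to 5 months, were first grown in 2% O2 and were sorted on day 12 (by the labels) as CD45-, Ter-119-, Sca-1+ and CD140a+ cells before a week in the assigned oxygen level. The study describes its ATAC-seq data as 2 biologically independent experiments. The labels number the libraries but do not say which animals or cultures gave which. The p-values therefore measure the spread between these libraries only, and the technical part of that spread is not known. All values are from cells expanded in culture, and in such bulk samples a smaller share of cells with open chromatin and a lower accessibility per cell cannot be told apart.

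Library totals ran from 26680936 to 29965523 reads. Nuclear peaks held 49.2% and 53.2% of the total in hypoxia against 31.0% and 35.2% in normoxia, and mitochondrial peaks held 7.77% and 9.13% against 1.5% and 2.34%. These shares move with the oxygen groups, and their part in the results on histone genes was not tested beyond the scalings given further on. Of the mesenchymal markers, 8 of 9 genes had a promoter peak (Lepr had none), with summed values of 1104 and 1115 in hypoxia against 631 and 711 in normoxia. Only 3 of 9 blood markers had one, with sums from 41.6 to 80.9 per library and with Ptprc, Cd3e, Itgam, Spi1 and Cd79a among those lacking any, and 3 of 4 endothelial markers had one, with sums from 52.1 to 87.7 (Cdh5 had none). None of the blood or endothelial peaks was called at the threshold used below. Of the 10 mesenchymal peaks only 1 at Ly6a was, with lower signal in normoxia, against 18.5% of promoter peaks of equal mean value. That Ly6a peak was weak, with 13.1 and 12.2 in hypoxia against 3.37 and 1.67 in normoxia. The main Ly6a peak, which abuts it, had 64.4 and 82.6 against 41.6 and 51.1 and was not called.

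The 67 genes fell into 7 blocks. On chromosome 13 the Hist1 cluster was divided into block A (21715763 to 21837530, 18 genes), block B (22035164 to 22043676, 5 genes), block C (23531050 to 23764406, 29 genes) and block D (23933773 to 23934851, 2 genes). The Hist2 cluster held 10 genes on chromosome 3 (96219865 to 96270132), Hist3 held 2 genes on chromosome 11 (58948920 to 58956830), and Hist4 held Hist4h4 alone on chromosome 6 (136801553 to 136804415). Of the 52 peaks, 15 lay in block A, 2 in block B, 25 in block C, 7 in Hist2, 2 in Hist3 and 1 in Hist4, and none was found in block D.

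Short words of promoter sequence are shown here because the histone types are compared below. Promoters of 62 of the 67 genes were found in the RefSeq table (build GRCm38.p6), which gives 250 bases before and 50 after each start. Hist1h2bc, Hist1h3a, Hist1h3f, Hist2h2be and Hist2h4 were not matched. The examples below end upstream of the annotated start sites, and their capitals mark 5 words read on either strand. The TATA box was searched as TATAAA and the CCAAT box by its own letters. The octamer, a word of H2A and H2B promoters that POU factors bind, was searched as ATTTGCAT. The H1 box, known from linker histone promoters, was searched as AAACACA. The H4 element, an H4 promoter word, was searched as GGTCCG. The first pair are linker histone promoters, one of a gene of the main cluster and one of the testis gene Hist1h1t. The next pair are H4 promoters, and then one H3 promoter follows.
Hist1h1b (chr13:21780626-21780775, minus strand): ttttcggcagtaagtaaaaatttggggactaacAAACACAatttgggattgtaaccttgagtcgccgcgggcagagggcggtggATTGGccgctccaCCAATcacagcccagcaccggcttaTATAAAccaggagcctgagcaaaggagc
Hist1h1t (chr13:23695661-23695810, plus strand): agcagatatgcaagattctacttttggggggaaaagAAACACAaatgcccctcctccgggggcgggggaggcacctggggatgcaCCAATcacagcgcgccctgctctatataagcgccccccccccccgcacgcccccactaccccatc
Hist4h4 (chr6:136804432-136804581, minus strand): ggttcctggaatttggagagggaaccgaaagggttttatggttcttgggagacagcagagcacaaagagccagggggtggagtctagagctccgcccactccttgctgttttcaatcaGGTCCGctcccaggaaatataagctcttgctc
Hist1h4i (chr13:22041363-22041512, minus strand): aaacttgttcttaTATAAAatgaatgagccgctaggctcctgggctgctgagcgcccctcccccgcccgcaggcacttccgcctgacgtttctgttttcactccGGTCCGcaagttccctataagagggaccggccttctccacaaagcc
Hist1h3h (chr13:21717478-21717627, plus strand): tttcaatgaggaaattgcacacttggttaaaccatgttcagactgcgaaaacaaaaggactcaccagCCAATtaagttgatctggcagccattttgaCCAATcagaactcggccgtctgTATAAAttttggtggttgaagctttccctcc

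The words were spread unevenly over the types. CCAAT was found in 53 of 62 histone promoters (85.5%, against 37.4% of 32817 promoters of all genes), namely in every matched H1, H2A, H2B and H3 promoter and in 3 of 12 H4 promoters. GGTCCG was found in 11 of 12 H4 promoters, in 1 of 16 H2B and in 1 of 10 H3 promoters, against 8.25% of all promoters. AAACACA was found in 5 of 6 H1 promoters, the exception being Hist1h1a, in 2 of 18 H2A and 2 of 16 H2B promoters, and in 7.19% of all promoters. TATAAA was found in 35 of 62 (56.5%) against 13.6%. These matches are descriptions of the letters in a fixed window, not sites shown to be bound.

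The octamer was found in 7 of 18 H2A and 6 of 16 H2B promoters and in no matched H1, H3 or H4 promoter, against 1.74% of all promoters. Among the 12 head-to-head pairs of an H2A and an H2B gene, the gap between starts ran from 175 to 305 bp with a median of 258.5 bp, so the windows of both genes overlap and 1 octamer can be counted for each. The pairs below show the part of the stretch between the starts of both genes that lies upstream of every annotated start, read on the plus strand, for one pair without the octamer and one with it.
Hist1h2bl/Hist1h2ai (chr13:21716184-21716411, plus strand): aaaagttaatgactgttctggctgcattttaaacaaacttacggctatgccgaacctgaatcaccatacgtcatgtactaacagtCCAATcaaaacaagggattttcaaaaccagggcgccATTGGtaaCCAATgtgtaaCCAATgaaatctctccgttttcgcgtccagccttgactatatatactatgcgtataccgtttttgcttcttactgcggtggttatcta
Hist1h2ah/Hist1h2bk (chr13:22035644-22035820, plus strand): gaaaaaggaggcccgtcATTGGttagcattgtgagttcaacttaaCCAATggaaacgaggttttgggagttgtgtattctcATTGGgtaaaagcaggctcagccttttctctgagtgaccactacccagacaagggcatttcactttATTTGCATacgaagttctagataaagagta

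Across the 52 peaks the signal was lower in normoxia. A deposited value is the number of reads in a peak scaled to the library total and not divided by peak width, so it depends also on width. Strongest and weakest, cuts on the mean value and matching on it refer to this value as it stands. The value summed over the 52 peaks came to 4925 and 5470.2 in hypoxia, against 2408 and 2678 in normoxia, resting on 13919, 16090, 6426 and 8025 reads. The normoxia sum was therefore 0.489 of the hypoxia sum, while the sum over 16309 nuclear promoter peaks of other genes came to 0.573 and that over all nuclear peaks to 0.647. As a share of the total over nuclear peaks, the histone peaks took 0.101% ± 0.00193 (SD, n = 2) in hypoxia against 0.0768% ± 0.00108 (SD, n = 2) in normoxia, and the groups did not overlap. With 2 libraries a group an exact two-sided permutation test cannot go below p = 0.333, so none is given for these sums.

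**Figure D1:**
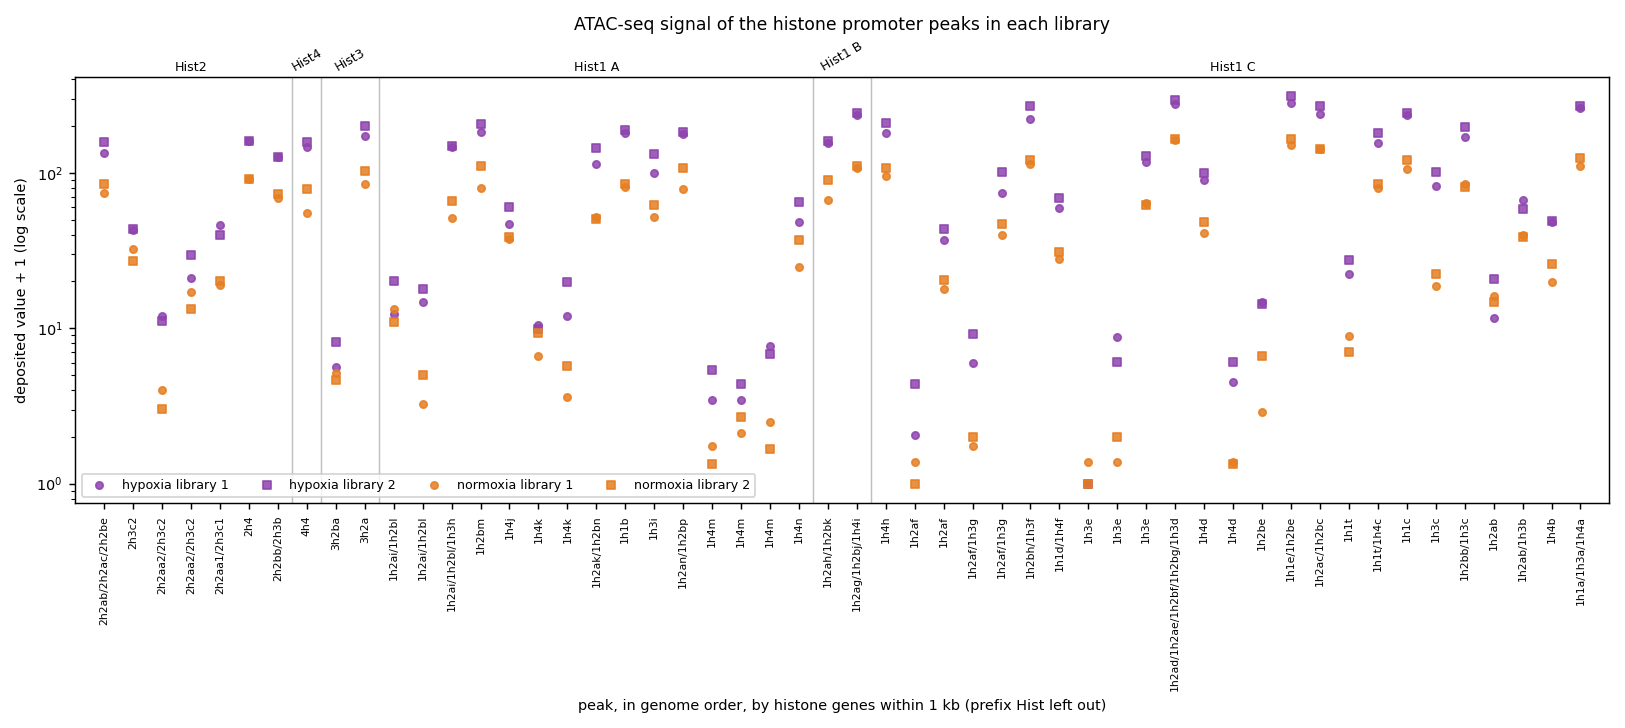
Deposited value plus 1 (log axis) of each of the 52 histone promoter peaks in the 4 libraries, in genome order, with the cluster named above and lines between clusters. Purple points are hypoxia, orange points normoxia, circles library 1 and squares library 2. In 49 of the 52 peaks both normoxia points lie below both hypoxia points.

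Both normoxia libraries were below both hypoxia libraries in 49 of the 52 histone peaks on the values as deposited, against 59.5% of all peaks and 87.7% of promoter peaks of other genes. Peaks were tested with limma on log2(value + 1) after scaling the libraries by relative log expression (RLE), and a peak was called at a false discovery rate (FDR) under 0.01, adjusted by Benjamini-Hochberg over the 128055 peaks. Of the 52 histone peaks, 24 fell in normoxia (46.2%), against a background of 4.57% of all peaks called lower. None of the 52 was called higher by limma or by edgeR, and none had an unadjusted limma p under 0.05 in that direction, against 1.77% of all peaks called higher by limma and 2.54% by edgeR. After scaling, the groups did not overlap in 43 of the 52 with normoxia lower (29.6% of all peaks), and the fold change was negative in 48 (50.4% of all peaks). For these scaled counts the share among promoter peaks of other genes is not given, so promoters are set only against peaks of all kinds. On the log2(value + 1) scale the median log2 fold change (normoxia over hypoxia) was -0.58 over the histone peaks, -0.28 over promoter peaks of other genes and -0.0040 over all peaks. These medians depend on the scaling, and on the values as deposited the median of all peaks was -0.44.

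Since the fold change of promoter peaks varied with their level, each histone peak was set beside the promoter peaks of other genes nearest to it in rank of mean value, about 100 on either side. These equal-mean promoter peaks had a median log2 fold change of -0.34 (median over the histone peaks), and the histone peaks lay below their neighbours by a median of 0.26 on the log2 scale (difference -0.26), 44 of 52 being below. On average 16% of the equal-mean promoter peaks were called lower, against 46.2% of the histone peaks. When the neighbours were matched also on GC content (median 46.9% in histone peaks, 52.0% in the neighbours) the difference was -0.23, and when matched also on width it was -0.20. It was -0.14 without hypoxia library 2 and from -0.33 to -0.21 without any one of the other libraries. The difference is a description with no test, because peaks are not replicates.

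**Figure D2:**
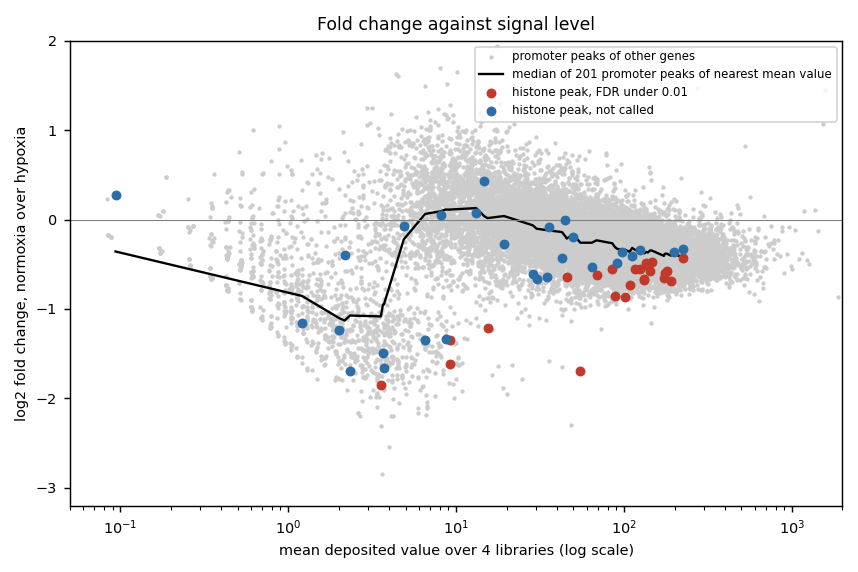
Log2 fold change (normoxia over hypoxia) against the mean deposited value over 4 libraries (log axis), for promoter peaks of other genes in grey and the 52 histone peaks in red (FDR under 0.01) or blue (not called). The black line joins the medians of the promoter peaks nearest in mean value to each histone peak, and 44 of 52 histone peaks lie below it.

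The number of calls depended on scaling and on single libraries. On the values as deposited it was 41 (24.0% of all peaks and 63.2% of other promoter peaks were then called lower). With equal totals over nuclear peaks it was 12 (1.95% and 7.24%), and with cyclic loess, which takes out any trend of fold change with level, it was 8 (1.31% and 2.01%). With edgeR on the reads recovered from the values it was 29 (5.7% and 21.0%), and at an FDR under 0.05 by limma it was 37 (9.68% of all peaks). In each of these settings the share of histone peaks called was above that of other promoter peaks for which it is given. Of the 8 calls with cyclic loess, however, 6 were in peaks that the peak caller assigned to hypoxia only. The other 2 were among 40 histone peaks assigned to both groups. Hypoxia-only peaks were 12 of the 52 histone peaks and 1034 of 16309 other promoter peaks, so the 2 sets differ in make-up. Leaving out hypoxia library 1 or hypoxia library 2 left 0 limma calls among the histone peaks and among all 128055 (0.0%), with 39 and 37 histone peaks at an unadjusted p under 0.05, the lone hypoxia library being assumed to vary like the normoxia ones.

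All 7 peaks near linker histone (H1) genes fell in normoxia, with a median log2 fold change of -0.64 and a range from -1.21 to -0.43. Their equal-mean promoter peaks had a median of -0.38, and 27.7% of those were called lower. With cyclic loess 1 of the 7 was called, the peak at Hist1h1t. These genes encode the somatic linker histones except Hist1h1t, whose product is known from spermatocytes of the testis.

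The Hist1h1b peak (block A, 3300 bp) had values of 178 and 187 in hypoxia against 79.8 and 84.1 in normoxia, a log2 fold change of -0.67 ± 0.12 (SE) with a limma FDR of 0.000355. The groups did not overlap. The Hist1h1c peak (4500 bp) had 234 and 240.4 against 104 and 120.1 (-0.60 ± 0.11, limma FDR 0.000525). The peak over Hist1h1a, Hist1h3a and Hist1h4a, at the end of block C, had 258 and 267 against 110.2 and 123 (-0.69 ± 0.11, limma FDR 9.83e-05). In all of these the libraries of a group stood close together relative to the gap between groups.

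The Hist1h1e peak, which also covers Hist1h2be, was the strongest of the 52, with 279.6 and 309 in hypoxia against 149 and 164 in normoxia. Its log2 fold change of -0.43 ± 0.10 (limma FDR 0.0051) differed from the median of equal-mean promoter peaks by only -0.03. Hist1h1d is a special case, because its GENCODE start lies 1770 bp from the RefSeq one. The only peak within 1 kb of the GENCODE start was the one over Hist1h4f (58.0 and 67.3 against 27.0 and 30.0, -0.64 ± 0.16, limma FDR 0.00808).

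Hist1h1t, the testis linker histone, had 2 peaks that abut. The first (chr13:23694101-23695900), assigned by the peak caller to hypoxia only, had 21.2 and 26.5 in hypoxia against 7.87 and 6.01 in normoxia (-1.21 ± 0.26, limma FDR 0.00217). It was lower than every one of its equal-mean promoter peaks, but the caller drew it from the same libraries, so this rank is no separate evidence. The second, shared with Hist1h4c, had 155 and 179.8 against 78.7 and 83.8 (-0.56 ± 0.12, limma FDR 0.00229). By contrast, no peak lay within 1 kb of Hist1h2ba and Hist1h2aa, the head-to-head pair of testis genes in block D, where 10.7% of the 32-base words of the surrounding 2 kb occur elsewhere in the genome.

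Of 20 peaks near H2A genes 7 fell (median log2 fold change -0.54), and of 17 near H2B genes 10 fell (median -0.56), against 16.3% and 26.2% of their equal-mean promoter peaks, with many peaks counted under both. Of the 12 head-to-head pairs, 9 had both starts inside 1 peak. The 5 such pairs in blocks A and B fell, and the remaining 4, which lie in block C and Hist2, did not pass the threshold, with log2 fold changes from -0.41 to -0.33. Whether the pairs of these blocks differ was not tested.

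The lowest of them was the peak over Hist1h2bl, Hist1h2ai and the H3 gene Hist1h3h, whose shared promoter is printed above. It had 144 and 147 in hypoxia against 49.8 and 64.7 in normoxia (-0.87 ± 0.13, limma FDR 6.66e-05), below all of its equal-mean promoter peaks. Hist1h2ak/Hist1h2bn had 113 and 142 against 50.6 and 49.1 (-0.86 ± 0.14, limma FDR 0.000115). Next to the former, a 400 bp flanking peak assigned to hypoxia only had 13.8 and 17.0 against 2.25 and 4.00 (-1.61 ± 0.33, limma FDR 0.00122). In all of these the normoxia values were under those of either hypoxia library by more than the spread within either group.

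The pair Hist1h2ag/Hist1h2bj of block B, in a 4600 bp peak with the H4 gene Hist1h4i, had 234 and 243 in hypoxia against 107 and 109 in normoxia (-0.66 ± 0.11, limma FDR 0.000224). Hist1h2ah/Hist1h2bk, the pair with the octamer printed above, had 154 and 159.8 against 66.0 and 88.4 (-0.56 ± 0.13, limma FDR 0.00368). Hist1h2an/Hist1h2bp had 177 and 181 against 78.0 and 107 (-0.49 ± 0.13, limma FDR 0.00798). The normoxia libraries spread more in the latter pairs than in Hist1h2ag/Hist1h2bj, and no groups overlapped.

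The largest histone peak, 7900 bp of block C, held the most genes, both pairs Hist1h2ae/Hist1h2bg and Hist1h2bf/Hist1h2ad together with the H3 gene Hist1h3d. It had 275 and 294 in hypoxia against 160.4 and 164 in normoxia, a log2 fold change of -0.33 ± 0.11 with a limma FDR of 0.0301, and stood 0.08 above its equal-mean promoter peaks. With cyclic loess its log2 fold change was 0.050. It did not pass the threshold, although the groups did not overlap.

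Outside the pairs, 3 peaks with H2B genes fell, beside that of Hist1h2be and Hist1h1e given above. Hist1h2bm, whose promoter holds the octamer, had 182 and 204 against 78.3 and 109 (-0.58 ± 0.13, limma FDR 0.00215). Hist1h2bh with Hist1h3f had 219.7 and 268 against 113 and 120.1 (-0.58 ± 0.11, limma FDR 0.000826), and Hist1h2bb with Hist1h3c had 169.5 and 196 against 83.6 and 79.4 (-0.68 ± 0.12, limma FDR 0.000402). In these the hypoxia libraries were each well above both normoxia ones. Of peaks at H2A genes outside the pairs, that over Hist1h2af had 36.1 and 42.2 against 16.9 and 19.4 (-0.61 ± 0.19, limma FDR 0.0318), and that over Hist1h2ab and Hist1h3b had 65.8 and 57.1 against 39.0 and 37.4 (-0.20 ± 0.16, limma FDR 0.439). Neither passed the threshold.

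The 3 highest fold changes at mean values of 10 or more were at H2A, H2B or H4 genes, and none passed the threshold. A 1200 bp peak 826 bp from Hist1h2ab had 10.6 and 19.7 in hypoxia against 15 and 13.7 in normoxia (0.43 ± 0.26, limma FDR 0.282). A 900 bp peak 643 bp from Hist1h2bl, on the far side of the pair described above, had 11.3 and 19.0 against 12.4 and 10.0 (0.07 ± 0.27, limma FDR 0.893). In both the hypoxia libraries lay on either side of at least 1 normoxia library, and the sign turned negative on the values as deposited.

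H3 genes had 18 peaks, of which 7 fell, with a median log2 fold change of -0.56. Of their equal-mean promoter peaks 16.1% were called lower, and the median was -0.33. Hist1h3i had 98.7 and 131 in hypoxia against 50.6 and 60.7 in normoxia (-0.55 ± 0.14, limma FDR 0.00767). The lowest fold change among peaks of mean value 10 or more was in a 2800 bp peak 302 bp from Hist1h3c (chr13:23742501-23745300), which lies between the peaks of Hist1h1c and of Hist1h3c itself and abuts both. It had 81.4 and 99.6 in hypoxia against 17.6 and 21.4 in normoxia, a log2 fold change of -1.69 ± 0.17 with a limma FDR of 4.09e-08 and with cyclic loess of -1.60. Its mean in normoxia was 21.5% of that in hypoxia, and it lay below all its equal-mean promoter peaks. The caller had assigned it to hypoxia only from the same libraries, as it had 1034 of 16309 promoter peaks of other genes. This rank is therefore no separate evidence.

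Beside the Hist1h3e start, a 400 bp peak had 7.79 and 5.10 in hypoxia against 0.375 and 1 in normoxia (-1.85 ± 0.47, limma FDR 0.00701), and the 300 bp peak next to it, the weakest of the 52, had values of 0 in both hypoxia libraries, 0.375 in normoxia library 1 and 0 in normoxia library 2, which is 1 read in all. In these 82.9% and 100% of 32-base words occur elsewhere in the genome, and the part of that in these values was not tested. The main peak over the Hist1h3e start had 116 and 126 against 62.6 and 60.7 (-0.49 ± 0.13, limma FDR 0.0119), just outside the threshold.

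H4 genes had 17 peaks, of which 8 fell, with a median log2 fold change of -0.64. Of their equal-mean promoter peaks 13.9% were called lower, and the median was -0.34. Hist4h4, alone on chromosome 6 and far from the other clusters, had 144 and 156 in hypoxia against 54.0 and 77.4 in normoxia (-0.73 ± 0.14, limma FDR 0.000486), 0.37 below its equal-mean promoter peaks. Hist1h4d had 88.5 and 98.9 against 40.1 and 47.1 (-0.62 ± 0.14, limma FDR 0.00377), and Hist1h4h had 178 and 209 against 93.7 and 106 (-0.47 ± 0.12, limma FDR 0.00661). The GGTCCG word is in the promoter windows of these 3 genes.

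Hist1h4k had a weak peak over its start with 11 and 18.7 in hypoxia against 2.62 and 4.67 in normoxia (-1.35 ± 0.33, limma FDR 0.00608), assigned to hypoxia only by the caller. The peak that abuts it, 105 bp from the start and assigned to both groups, had 9.55 and 8.84 against 5.62 and 8.34 (0.05 ± 0.31, limma FDR 0.939). Hist1h4j, also in block A, had 45.6 and 58.8 against 36.7 and 37.4. Its log2 fold change of -0.0050 ± 0.17 (limma FDR 0.989) stood 0.18 above its equal-mean promoter peaks, and in block A the H4 peaks ranged from -1.49 near Hist1h4m (limma FDR 0.0237, not called) to 0.05 at Hist1h4k. The sign of the Hist1h4j value turned with equal totals over nuclear peaks (0.14) and with cyclic loess (0.091).

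**Figure D3:**
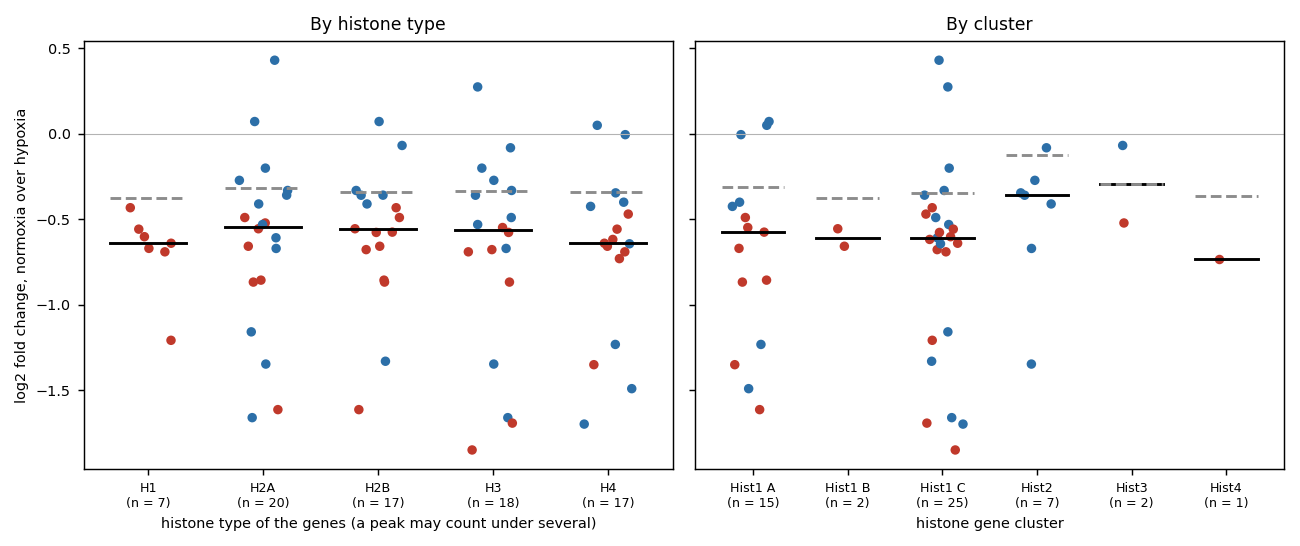
Log2 fold change (normoxia over hypoxia) of histone promoter peaks by histone type (left) and by cluster (right), 1 point per peak, red for FDR under 0.01 and blue for peaks not called. Black bars are medians and dashed grey bars the medians of promoter peaks of equal mean value. Every H1 peak is red (27.7% of equal-mean promoter peaks were called) and no Hist2 peak is (11.6%).

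By cluster, 8 of 15 peaks fell in block A (median log2 fold change -0.58), 2 of 2 in block B (-0.61), 12 of 25 in block C (-0.61) and the single peak of Hist4. In Hist2, limma called 0 of 7 peaks, with 5 at an unadjusted p under 0.05 and 1 called by edgeR, and the median log2 fold change was -0.36. Among promoter peaks of equal mean value 11.9% were called lower for block A, 33.1% for block B, 17.5% for block C, 22.1% for Hist3, 24.9% for Hist4 and 11.6% for Hist2. The 0 of 7 in Hist2 is therefore near its background share. Summed over peaks, the normoxia signal was 0.471 of the hypoxia signal in block A, 0.469 in block B, 0.490 in block C, 0.55 in Hist2, 0.505 in Hist3 and 0.437 in Hist4. The Hist2 sums were 537 and 562 in hypoxia against 299.8 and 304 in normoxia. Every cluster was lower in both normoxia libraries, and the difference between clusters was not tested.

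None of the Hist2 peaks passed the threshold. In all 7 both normoxia libraries were below both hypoxia libraries on the values as deposited, as in 87.7% of promoter peaks of other genes. After RLE scaling this held in 5 of the 7 (29.6% of all peaks, the share among promoter peaks of other genes not being given). The Hist2h2ab, Hist2h2ac and Hist2h2be peak had 134 and 157 against 73.5 and 83.1 (-0.41 ± 0.13, limma FDR 0.0248), and Hist2h4 had 159 and 159 against 89.6 and 89.4 (-0.35 ± 0.12, limma FDR 0.053). The peak over the Hist2h2aa1 start, within 1 kb of that of Hist2h3c1, had 44.9 and 38.8 against 18 and 19.0 (-0.67 ± 0.20, limma FDR 0.0185). Over the Hist2h3c2 start, and within 1 kb of that of Hist2h2aa2, lay a peak in which 92.3% of words are repeated elsewhere. It had 11 and 10.2 against 3.00 and 2.00 (-1.35 ± 0.36, limma FDR 0.0113). These 4 are given after their values were seen, and the groups do not overlap in any of them.

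Counted by gene, 58 genes had a start inside a peak, and for 33 of them that peak fell, while for 25 it was not called. By type these were 5 of 5 H1 genes, 6 of 15 H2A genes, 9 of 15 H2B genes, 5 of 11 H3 genes and 8 of 12 H4 genes. Among promoter peaks of other genes with a start inside, 19.6% were called lower. For all peaks of a type, flanks included, the equal-mean share was 27.7% for H1, 16.3% for H2A, 26.2% for H2B, 16.1% for H3 and 13.9% for H4. Genes under 1 peak share its value, so the counts of genes are not independent of each other.

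The Hist3 cluster had 1 called peak of 2, and 22.1% of their equal-mean promoter peaks were called lower. The median difference of the Hist3 peaks from equal-mean promoter peaks was -0.00011. The peak over Hist3h2a, which also covers the start of Trim17, had 172 and 198 in hypoxia against 83.2 and 102 in normoxia (-0.52 ± 0.12, limma FDR 0.00352). Hist3h2ba had 4.60 and 7.14 against 4.12 and 3.67 (-0.07 ± 0.38, limma FDR 0.93), and a difference was not detected there. The Hist2 peak over Hist2h2ab, Hist2h2ac and Hist2h2be likewise also covers the start of another gene, Bola1.

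Not all peaks near these genes sat on a start site. Of 37 peaks with a start inside, 21 fell (56.8%, against 19.6% of promoter peaks of other genes with a start inside), and of 15 flanking peaks 3 fell (20%, against 5.50% of other flanking promoter peaks). The caller had assigned 40 peaks to both groups, of which 19 fell (47.5%, against 17.9% of such promoter peaks elsewhere), and 12 to hypoxia only, of which 5 fell (41.7%, against 11.3%). The caller drew these borders from the same 4 libraries. The low fold changes of the hypoxia-only peaks ran from -1.85 to -1.16. These and their ranks below equal-mean promoter peaks are values and no separate evidence.

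Inside the blocks 32 further peaks lay more than 1 kb from a histone start, and 2 of them fell (6.25%, near the 4.57% of all peaks called lower). Of the 11 with a mean value of at least 10, the median log2 fold change was -0.13. The 2 that fell lie 1039 bp and 1103 bp from a start, just outside the distance of the rule. The nearer (chr13:23554301-23557200, by the GENCODE start of Hist1h1d) had 134 and 161 in hypoxia against 66.3 and 70.4 in normoxia with a log2 fold change of -0.62. It holds the RefSeq start of Hist1h1d, and stands outside only by the GENCODE start that the rule used. The member farthest from a start (894 bp, near Hist1h2be) had 13.8 and 13.3 against 1.87 and 5.67 with -1.33 and a limma FDR of 0.0105, which missed the threshold.

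Many histone genes are near copies of each other, which limits what short reads can show. The authors kept reads with a mapping quality of at least 15, and sequence that occurs more than once in the genome can lose reads under that filter. A median of 18.2% of 32-base words in the histone peaks occur elsewhere in the genome, against 0.601% in 104 promoter peaks of neighbouring mean value. For Hist1h2bq, Hist1h2ao, Hist1h2ap and Hist1h2br of block A, all of which lack a peak, 100% of the words within 1 kb of the start are repeated, so nothing is read from a missing peak there. Values of near-identical copies such as Hist1h4m and Hist1h4n, or Hist2h3c1 and Hist2h3c2, are uncertain. Among the 18 peaks with under 10% repeated words 10 fell (median log2 fold change -0.58), against 16.4% of their equal-mean promoter peaks. Among the 28 with 10% to 50% 13 fell (-0.57), against 18.3%.

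**Figure D4:**
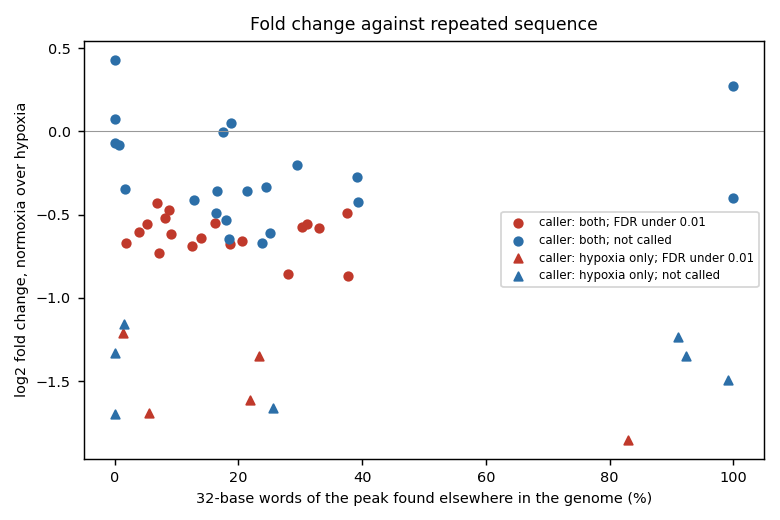
Log2 fold change (normoxia over hypoxia) of each histone peak against the percentage of its 32-base words found elsewhere in the genome. Circles are peaks the caller assigned to both groups and triangles those assigned to hypoxia only, in red for FDR under 0.01 and blue if not called. Of 6 peaks above 50% repeated words, 1 was called (4.06% of their equal-mean promoter peaks were).

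Promoter words were set beside the calls for the 53 matched genes with a start in a peak. Of 11 genes with the octamer 5 had a start peak that fell, and of 42 without it 26 did. For the GGTCCG word these counts were 9 of 12 with it and 22 of 41 without it, and for CCAAT 26 of 45 with it and 5 of 8 without it. Among promoter peaks of other genes with a start inside, 19.6% were called lower. Genes that share a peak or a promoter are counted more than once in the counts by word, and no difference was tested.

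Other genes of the histone supply were read from lists in the same fit. Of 25 promoter peaks at 21 regulators of histone genes and their transcripts, 9 fell and none rose, with a median log2 fold change of -0.42, close to that of equal-mean promoter peaks (difference -0.03), of which 22.5% were called lower. Cpsf3, the nuclease of histone 3′ end processing, had 199 and 214 in hypoxia against 81.3 and 107 in normoxia (-0.66, limma FDR 0.000402). Cstf2 had 118 and 134 against 43.9 and 65.4 (-0.74, limma FDR 0.000759). Slbp, the protein that binds the stem-loop, had 184 and 172 against 79.8 and 93.8 (-0.56, limma FDR 0.00245). Of the others that fell, Cdk2, the cyclin E kinase, had 99.1 and 121 against 43.9 and 55.1 (-0.67, limma FDR 0.00165). For Sympk, a scaffold of 3′ end processing, the called peak was weak, with 18.8 and 15.6 against 2.25 and 5.01 (-1.63, limma FDR 0.00107). The main Sympk peak, which abuts it, had 152 and 150 against 84.7 and 103 (-0.21, limma FDR 0.256) and was not called. The remaining regulators with a called peak were Ccne1, Ccne2, E2f1 and Pou2f1.

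Npat, the coactivator that drives histone transcription, had 297 and 282 against 140.2 and 181 with -0.38 (limma FDR 0.0191), and Hinfp, a factor of H4 promoters, had 111 and 122 against 63.0 and 71.1 with -0.32 (limma FDR 0.0947). Both were added to the named genes after their values were seen. Neither passed the threshold, although in both every normoxia library was below every hypoxia library on the values as deposited. The same held in 87.7% of promoter peaks of other genes and 59.5% of all peaks.

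Of 40 promoter peaks at 36 DNA replication genes, 17 fell and none rose (42.5%, against 22.3% of their equal-mean promoter peaks), with a median log2 fold change of -0.35 and a difference from equal-mean peaks of -0.10. The main peak of Gins1, of the replicative helicase complex, had 118 and 131 in hypoxia against 49.5 and 53.7 in normoxia (-0.78, limma FDR 0.000234). Mcm7, of the same helicase, had 257 and 268 against 114 and 133 (-0.61, limma FDR 0.000351). Lig1, the ligase of replication, had 2 called peaks, with 14.9 and 11.6 against 2.25 and 1.33 (-1.98, limma FDR 0.000542) in the weaker and 188 and 166 against 68.6 and 93.1 (-0.66, limma FDR 0.00105) in the stronger. The median difference from equal-mean peaks was -0.26 for the histone genes, and these 2 values were not tested against each other.

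Of 11 promoter peaks at replication-independent histone genes 3 fell (27.3%, against 29.3% of equal-mean promoter peaks), with a median log2 fold change of -0.24. The peak at H3f3b, a gene for H3.3, had 737 and 832 in hypoxia against 304 and 338 in normoxia (-0.81, limma FDR 1.75e-07), and H2afz, for H2A.Z, had 251 and 287 against 112 and 141 (-0.61, limma FDR 0.000402). H2afj had 282 and 301 against 132 and 174 (-0.46, limma FDR 0.00439). Of 20 peaks at histone chaperones 3 fell (15%, against 29.9% of equal-mean promoter peaks), among them Asf1a with 365 and 403 against 153 and 205 (-0.63, limma FDR 0.000163), and the other 2 were Hira (-0.49, limma FDR 0.00534) and Ssrp1 (-0.53, limma FDR 0.00649). None of the peaks on these lists was called higher by limma.

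**Figure D5:**
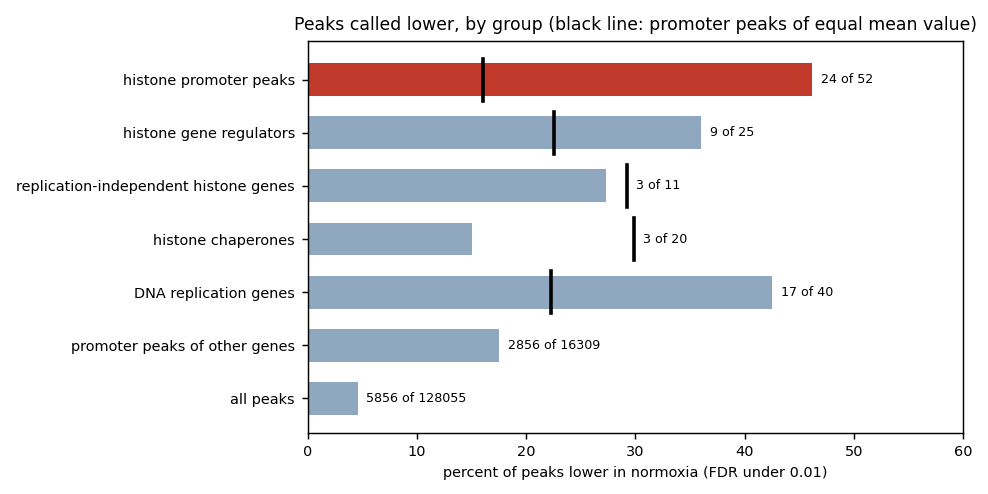
Percent of peaks called lower in normoxia (limma, FDR under 0.01) in the histone promoter peaks, in promoter peaks of the other gene lists, in promoter peaks of other genes and in all peaks, with the counts beside the bars. Black lines give the mean percent called among promoter peaks of equal mean value, 16% for the histone peaks, whose own share is 46.2%.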

How the data were processed

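ATAC-seq was measured in 4 libraries of cultured mouse MSCs. By the methods given for the study, reads were aligned to mm10 with bowtie2, duplicates were removed with Picard, and peaks were called between the groups by chromstaR (bins of 300 bp, steps of 100 bp, mapping quality of at least 15). The authors deposited a signal per peak and library. They call it RPKM, but it was not divided by width: 100% of values were whole multiples of 1 step (tolerance 0.01), from which reads and library totals were recovered.

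Values were scaled by RLE size factors (1.13 and 1.23 in hypoxia, 0.81 and 0.89 in normoxia) and tested two-sided with limma 3.58.1 in R 4.3.3 (eBayes with trend and robust estimation) on log2(value + 1), a scale that understates changes of low peaks. The FDR covers all peaks. The alternatives were other scalings, pseudocounts, filters and matching, edgeR 4.0.16 on recovered reads, a replicate block and leaving out each library. The code was tested on simulated data. Mitochondrial peaks were left out of the promoter peaks compared. Blocks are runs of histone genes less than 150 kb apart. Repeated words are 32-base words found more than once in the reference genome.

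Named peaks were all those called, the 3 lowest and 3 highest fold changes at a mean value of at least 10, the strongest, the weakest and the one with most genes, all peaks of clusters with 3 or fewer peaks, those of testis genes, and those on either side of the 1 kb limit. In each list up to 5 called peaks of lowest p were named, apart from an item that is not reported here. The uncalled Hist1h3e, Hist1h2af, Hist1h2ab/Hist1h3b, Hist1h4k, Hist1h4m, Hist2, Npat, Hinfp and main Sympk peaks were added after their values were seen. The members, gene lists and tests were chosen with earlier results of these data known.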

Additional observations from a re-analysis of the deposited data

How the results depend on the processing

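The histone peaks called lower in normoxia numbered 24, with a median log2 fold change of -0.58. On the values as deposited these were 41 and -1.05, with equal totals over nuclear peaks 12 and -0.43, and with cyclic loess 8 (6 of them among the 24) and -0.34. Without trend and robust estimation in limma 0 were called, with 35 at an unadjusted p under 0.05 and none called among all peaks. At an FDR under 0.05, 37 were called. Leaving out 1 library gave 0 to 24 calls, a median of -0.64 to -0.55, and a difference from equal-mean promoter peaks of -0.33 to -0.14. There were 0 calls without either hypoxia library, 19 without normoxia library 1 and 24 without normoxia library 2 (22 of them among the main 24), and the difference of -0.14 came without hypoxia library 2. The cause of these shifts was not tested. Pseudocounts of 0.1 and 5 gave 18 and 25 calls, a minimum mean value of 5 gave 26 of 43 peaks, edgeR gave 29, and peaks within 2 kb of a start gave 26 of 57. None of these alternatives called a histone peak higher. Matching on the caller's state as well, chosen after seeing the data, gave a difference of -0.20.

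Among named peaks the sign turned in 5. Hist3h2ba had 0.057 with equal totals and -0.29 to 0.14 when 1 library was left out. The 900 bp peak by Hist1h2bl had -0.37 as deposited, -0.12 with cyclic loess and -0.23 to 0.36 with 1 library left out. Hist1h4j had 0.14 with equal totals, 0.091 with cyclic loess and -0.14 to 0.11 with 1 library left out. The peak of 5 genes had 0.050 with cyclic loess, and the peak by Hist1h2ab had -0.018 as deposited.

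With the replicate number as a block 32 histone peaks were called lower. Deviations of libraries with the same number had a correlation of 0.011 over all peaks and 0.029 over those with a mean of 5 or more, so the numbers were not taken to pair the libraries. The block changed no direction.

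Precision is limited by 2 libraries a group and in the weakest peaks by a few reads.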
